A study of Danio rerio with 9 samples.

Results

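Sprouty, Spred and Sef proteins are feedback inhibitors of receptor tyrosine kinase signaling, and their genes were examined here in RET-driven and BRAF-driven thyroid tumors of zebrafish. The genes were chosen by family name, though with earlier results of these data known. They are the Sprouty genes spry1, spry2 and spry4, the Spred genes spred1, spred2a, spred2b and spred3, and il17rd, the gene of Sef. All 8 were found among the 27158 genes of the table, and all 8 were among the 18453 genes that passed the filter on low counts. The gene spred3 passed through its counts in CCDC6-RET tumors alone.

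These proteins form a brake that the pathway builds for itself. An activated receptor passes its signal through adaptor proteins to Ras, then to the kinases RAF, MEK and ERK, and active ERK raises transcription of several inhibitors that act further up the same route. Sprouty proteins act between the receptor and RAF, Spred proteins bring the Ras inactivator neurofibromin to the membrane, and Sef is a transmembrane protein that dampens FGF receptor and ERK signaling. In thyroid cancer the 2 oncogenes enter this route at different points, since a RET fusion signals from the receptor level through Ras and BRAF(V600E) signals below Ras.

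The first group held 4 libraries from thyroid tumors of fish in which the zebrafish thyroglobulin promoter drove human CCDC6-RET, a fusion kinase. The second group held 5 libraries from tumors in which the same promoter expressed BRAF(V600E), a constitutively active mutant kinase. The labels describe both groups as adult, both were left untreated, and there was no normal thyroid among the samples, so each value is one tumor type relative to the other. Libraries are called by the numbers in their labels, which are 2, 3, 5 and 6 for CCDC6-RET and 1, 2, 3, 6 and 7 for BRAF(V600E). A numbered tumor below means the library with that number, since the labels do not say that each number is a separate tumor. The CCDC6-RET transgene was placed in fish with a red thyroid reporter, the BRAF(V600E) line came from an earlier model, and the study's tumor-onset cohort of that line was mutant for p53. Whether the sequenced BRAF(V600E) tumors were is not given by the labels. Differences in line, p53, fish age, dissection or sequencing run cannot be told apart from the oncogene. Nothing in the labels ties each library to its own fish, so the p-values reflect only the spread among these samples, which may be technical.

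Library totals ran from 8662544 to 13596477 counts. Muscle, fibroblast, blood and epidermal transcripts were far scarcer in CCDC6-RET libraries. Skeletal muscle markers made up 0.0278% to 0.0332% of counts in CCDC6-RET libraries against 0.843% to 2.68% in BRAF(V600E) libraries, with 22 of 23 tested markers lower. Most of the share in CCDC6-RET libraries was ryr1b, named here for its size, which was the marker that went the other way. Fibroblast markers were at 0.0379% to 0.1496% against 0.732% to 1.33% (12 of 14 lower), red blood cell markers at 0.00889% to 0.0764% against 0.480% to 1.66% (10 of 10 lower), and epidermal markers at 0.0935% to 0.261% against 1.53% to 3.52% (12 of 13 lower). The epidermal keratin genes krt92 and cyt1 were at 0 in all 4 CCDC6-RET libraries. In BRAF(V600E) libraries krt92 had a mean of 33.8 CPM, whereas cyt1 did not pass the filter on low counts. Leukocyte markers (16 of 18 lower) and endothelial markers (9 of 17 lower) were at 0.00657% to 0.0178% against 0.0587% to 0.0776% and at 0.0150% to 0.0486% against 0.0461% to 0.0606%. Thyroid markers made up 1.30% to 3.12% against 0.268% to 2.25%, and 10 of 12 were higher, so thyroid transcripts were present in every library. Most of that share was tg, the thyroglobulin gene, named here for its size, and tg is not among those 10. Neuronal markers were scarce but leaned the other way from the non-thyroid lists, at 0.00705% to 0.00966% against 0.00533% to 0.00666%. Of the 7 tested markers on that list 4 were higher and 2 lower. The 2 lower were snap25a and mbpa, the latter named here for its cell type. The gene mbpa, at 0.488 against 23.1 CPM, is a myelin gene of glia, so the list and its share are not purely neuronal. The neuronal genes elavl3 and snap25a were at 0 in all 4 CCDC6-RET libraries. In BRAF(V600E) libraries snap25a had a mean of 2.06 CPM, whereas elavl3 did not pass the filter on low counts. Higher and lower here mean called by the test described below, where 33.9% of all tested genes were higher and 38.2% lower. Of the endothelial list 52.9% was called, against 72.1% of all tested genes. Several markers near 0 in one group passed the filter on low counts only through the other, which favored their direction. Examples are pgam2 of muscle, at 0.119 against 67.5 CPM, and cdh16 of thyroid, at 22.4 against 0.248 CPM. The marker counts are therefore descriptions. The marker differences lie beside every result below, and their part in the results was not tested. In bulk tumors fewer cells of a type and less RNA per cell cannot be told apart.

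The inhibitors did not move as a block. CCDC6-RET tumors had more spry1, spred1 and spred2a and less spred2b, spry2, spry4 and il17rd did not pass the test, and spred3 had 667 counts in CCDC6-RET tumors against 11 in BRAF(V600E) tumors. Expression is given as CPM, the counts of a gene relative to the scaled library size, and a difference is the log2 level in CCDC6-RET tumors less that in BRAF(V600E) tumors, with the standard error after ±. A gene was called at a Benjamini-Hochberg adjusted p under 0.05 in edgeR's quasi-likelihood F test over all tested genes. By that test 4 of the 8 genes were called higher, where 33.9% of all tested genes were, and 1 was called lower, where 38.2% were (72.1% called in either direction). The groups did not overlap for 4 of the 8, all higher in CCDC6-RET tumors, where 29.2% of all tested genes were higher without overlap, 35.5% lower without overlap and 64.8% either. One of these 4 is spred3, which entered the test only through the group where it is high, so its direction was favored by the filter. Without spred3, 3 of 7 genes were called higher and 1 lower, and 3 were higher without overlap. The median difference was -0.07 for those 7 genes (0.27 with spred3) and -0.09 for all tested genes. These shares rest on only 8 genes and were not tested against those of the table at large. Nothing particular to the inhibitors is read from them.

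**Figure D1:**
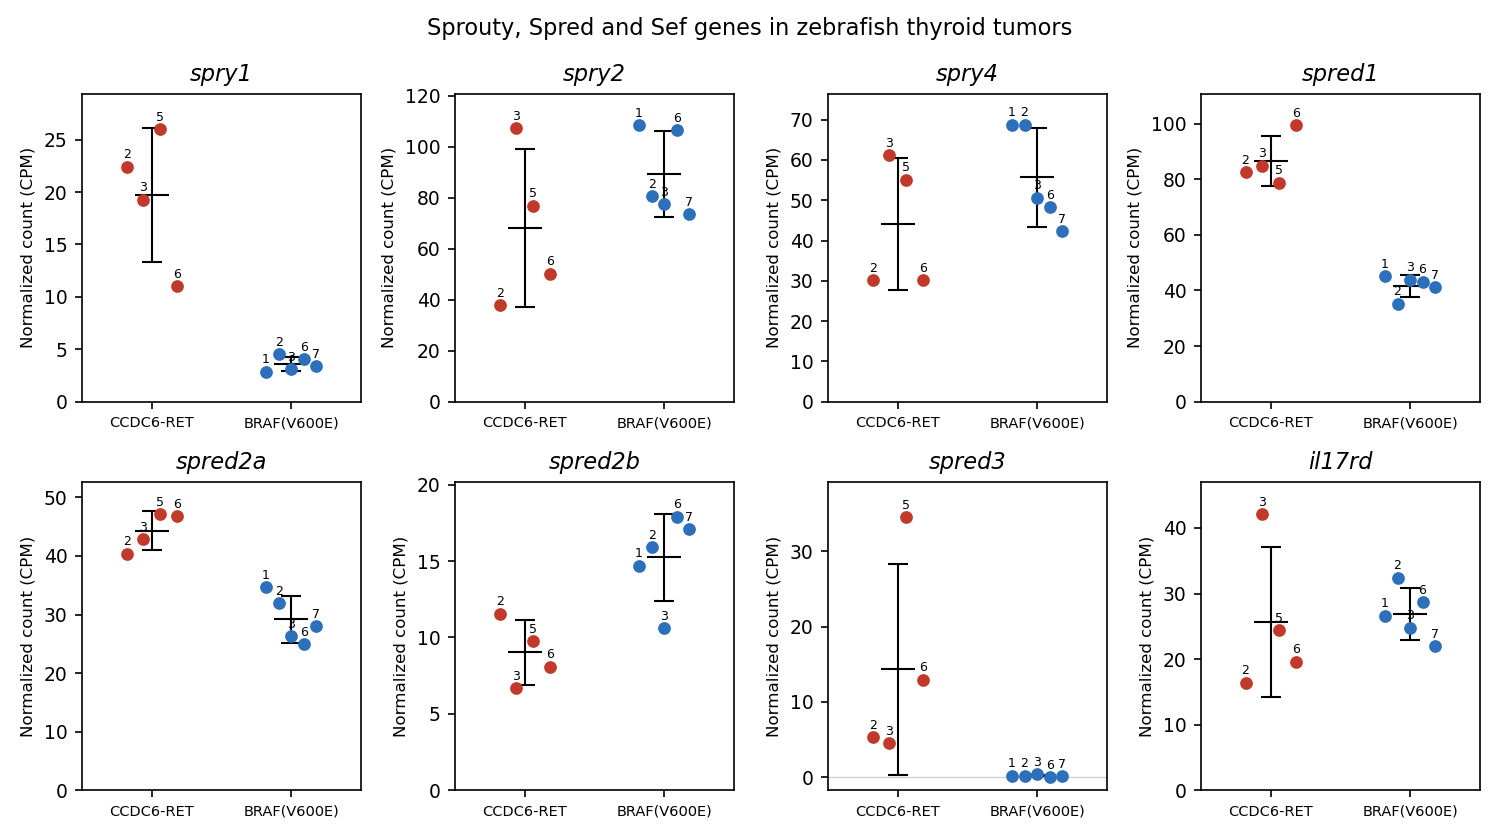
Normalized read counts (CPM, linear axis, a scale of its own for each gene) of the 8 inhibitor genes, with 1 numbered point per library and black bars for the group mean and SD. The 4 CCDC6-RET points lie above all BRAF(V600E) points for spry1, spred1, spred2a and spred3, and the groups overlap for the other genes.

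Among the Sprouty genes only spry1 passed. The spry1 gene (ENSDARG00000103985, GRCz10 chromosome 14, 508473 to 509757) encodes a Sprouty protein that holds back FGF and GDNF-RET signaling, the latter known from mouse kidney development. It was at 22.4, 19.3, 25.99 and 11.04 CPM in CCDC6-RET tumors 2, 3, 5 and 6. In BRAF(V600E) tumors 1, 2, 3, 6 and 7 it was at 2.87, 4.56, 3.13, 4.07 and 3.36 CPM. Every CCDC6-RET tumor lay above every BRAF(V600E) tumor, and even CCDC6-RET tumor 6, the lowest of its group, was well clear of them. The difference was 2.45 ± 0.27 (95% interval 1.85 to 3.05, edgeR adjusted p = 3.21e-05), or 5.46-fold, and 95.2% of tested genes had a smaller one. It passed under each alternative run, at 1.90 to 2.66.

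The spry2 gene (ENSDARG00000078308, chromosome 1, 4557535 to 4561637) encodes the Sprouty protein best known for binding the ubiquitin ligase CBL and the adaptor GRB2. In CCDC6-RET tumors 2, 3, 5 and 6 it was at 37.8, 107.4, 76.9 and 50.2 CPM, and in BRAF(V600E) tumors 1, 2, 3, 6 and 7 at 108.3, 80.6, 77.5, 106.5 and 73.6 CPM. The groups overlapped, because CCDC6-RET tumor 3 reached the top of the BRAF(V600E) range while tumors 2 and 6 lay below it. The difference was -0.39 ± 0.29 (interval -1.04 to 0.25, edgeR adjusted p = 0.240). The value moved with single libraries, to -0.17 without CCDC6-RET tumor 2, -0.25 without tumor 6 and -0.70 without tumor 3, and in the last case it passed (adjusted p = 0.0272). It also passed as lower when libraries were scaled on ribosomal protein genes, at -1.03 (adjusted p = 0.00360). Over all alternatives the adjusted p ran from 0.00360 to 0.575.

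The spry4 gene (ENSDARG00000068732, chromosome 21, 44605076 to 44610590) encodes a Sprouty protein that binds the kinase TESK1 and is a widely used readout of FGF and ERK signaling in fish embryos. It was at 30.1, 61.1, 55.2 and 30.2 CPM in CCDC6-RET tumors 2, 3, 5 and 6, compared with 68.8, 68.8, 50.7, 48.3 and 42.3 CPM in BRAF(V600E) tumors 1, 2, 3, 6 and 7. CCDC6-RET tumors 3 and 5 were inside the BRAF(V600E) range and tumors 2 and 6 below it. The difference was -0.34 ± 0.26 (interval -0.92 to 0.25, edgeR adjusted p = 0.267), and it passed with ribosomal scaling alone, at -0.93 (adjusted p = 0.00430, range 0.00430 to 0.583). For both spry2 and spry4 the intervals leave room for a fall to about 0.5 of the BRAF(V600E) level and exclude a rise of the size seen for spry1.

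Of the Spred genes, spred1 and spred2a were higher in CCDC6-RET tumors, spred2b was lower, and spred3 is described last. The spred1 gene (ENSDARG00000041449, chromosome 17, 52553192 to 52572819) encodes the Spred protein that recruits neurofibromin to Ras, and loss of its human counterpart causes Legius syndrome. CCDC6-RET tumors 2, 3, 5 and 6 had 82.6, 84.9, 78.7 and 99.4 CPM, and BRAF(V600E) tumors 1, 2, 3, 6 and 7 had 45.1, 35.2, 43.9, 43.1 and 41.1 CPM. The groups lay far apart and each was narrow, with the highest tumor 1.26 times the lowest in CCDC6-RET and 1.28 times in BRAF(V600E). The difference was 1.05 ± 0.11 (interval 0.79 to 1.31, edgeR adjusted p = 3.19e-05), or 2.07-fold. It passed under each alternative, at 0.48 with ribosomal scaling (adjusted p = 0.0213) and at up to 1.13 otherwise.

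Zebrafish carry the duplicated genes spred2a and spred2b in place of the single SPRED2 of humans, whose product inhibits Ras and RAF signaling as SPRED1 does. The spred2a gene (ENSDARG00000052435, chromosome 1, 50800750 to 50831175) was at 40.4, 42.9, 47.2 and 46.8 CPM in CCDC6-RET tumors 2, 3, 5 and 6. It was at 34.6, 31.9, 26.3, 24.9 and 28.0 CPM in BRAF(V600E) tumors 1, 2, 3, 6 and 7. All CCDC6-RET values were above all BRAF(V600E) values, by a narrow margin over BRAF(V600E) tumor 1. The difference was 0.60 ± 0.13 (interval 0.32 to 0.89, edgeR adjusted p = 0.00190), or 1.52-fold, and it ended with ribosomal scaling, at 0.04 (adjusted p = 0.844, range 0.000295 to 0.844).

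The spred2b gene (ENSDARG00000008372, chromosome 13, 5450552 to 5808557) was at 11.6, 6.68, 9.75 and 8.09 CPM in CCDC6-RET tumors 2, 3, 5 and 6. In BRAF(V600E) tumors 1, 2, 3, 6 and 7 it was at 14.7, 15.9, 10.6, 17.9 and 17.1 CPM. The groups touched only where BRAF(V600E) tumor 3 fell below CCDC6-RET tumor 2. The difference was -0.75 ± 0.22 (interval -1.24 to -0.26, edgeR adjusted p = 0.011), so that CCDC6-RET tumors had 0.593 times the BRAF(V600E) level. The call was lost in the 6 libraries that share tumor numbers, at an adjusted p of 0.0711 (range over all alternatives 0.000182 to 0.0734), with the difference again at -0.75. The annotated gene spans 358006 bases and overlaps the long noncoding RNA gene CR926469.1, which had 2 counts in all 9 libraries.

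The widest gap was that of spred3 (ENSDARG00000040358, chromosome 18, 44603333 to 44617798), whose product is the Spred protein that lacks a working KIT-binding domain in mammals. CCDC6-RET tumors 2, 3, 5 and 6 had 70, 35, 426 and 136 counts, or 5.29, 4.50, 34.6 and 12.9 CPM. BRAF(V600E) tumors 1, 2, 3, 6 and 7 had 2, 2, 5, 0 and 2 counts, at most 0.435 CPM. The gene was thus close to undetected in BRAF(V600E) tumors and clearly present in each CCDC6-RET tumor, though tumor 5 alone gave most of the 667 counts of its group. The 0 counts of BRAF(V600E) tumor 6 allow a level of up to 0.211 CPM (3 counts, counting error only). The fitted difference was 6.23 ± 0.85 (interval 4.33 to 8.13), and 5.31 without CCDC6-RET tumor 5. It is given as a description and not as a test, because spred3 would not have been among the tested genes without its CCDC6-RET counts. The human counterpart SPRED3 is on the RET signature that the study chose from these samples and its direction is therefore not independent of that choice.

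The il17rd gene (ENSDARG00000098359, chromosome 11, 42352132 to 42429271), whose Sef protein was first described in zebrafish as an inhibitor of FGF signaling, was at 16.4, 42.1, 24.4 and 19.6 CPM in CCDC6-RET tumors 2, 3, 5 and 6. It was at 26.6, 32.4, 24.8, 28.7 and 22.01 CPM in BRAF(V600E) tumors 1, 2, 3, 6 and 7. CCDC6-RET tumor 3 was the highest of all 9 libraries and tumors 2 and 6 were the lowest. The difference was -0.07 ± 0.26 (interval -0.67 to 0.52, edgeR adjusted p = 0.815). Its sign changed without CCDC6-RET tumor 2 or tumor 6, and it was lower with ribosomal scaling, at -0.70 (adjusted p = 0.0140, range 0.0140 to 0.976).

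**Figure D2:**
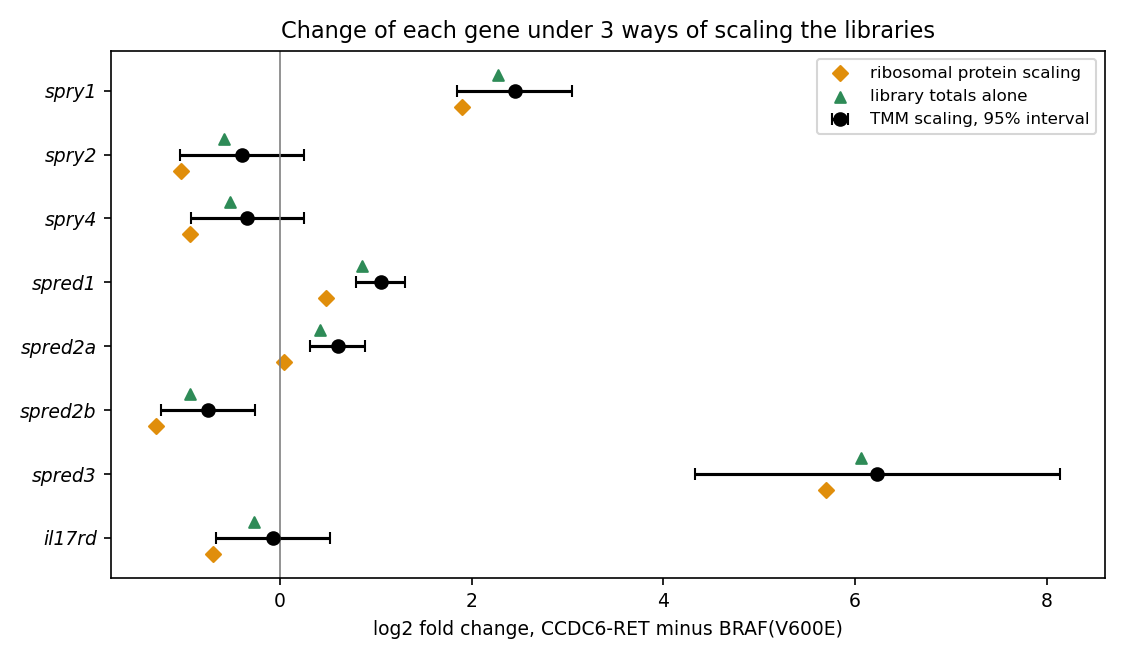
Difference of each inhibitor gene between CCDC6-RET and BRAF(V600E) tumors (log2 scale) with its 95% interval, beside the values with libraries scaled on ribosomal protein genes (diamonds) or by library totals alone (triangles). With ribosomal scaling all 8 values are lower, spred2a no longer passes at 0.04, and spry2, spry4 and il17rd pass as lower at -1.03, -0.93 and -0.70.

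Scaling on the 88 ribosomal protein genes moved the median difference of all tested genes by -0.56, and 25.6% of the calls were then higher in place of 47.0%. Such a change of scaling shifts all genes nearly alike, so a value taken relative to that median moves little by construction and says nothing of how stable a call is. Relative to the median of all tested genes with the usual scaling, spry1 was at 2.54, spred1 at 1.14, spred2a at 0.69 and spred2b at -0.67. On the same footing spry2 was at -0.31, spry4 at -0.25 and il17rd at 0.01.

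Because a ratio of relatives inside a library does not depend on scaling, 5 pairs were compared by their log2 ratio of counts with an exact two-sided permutation test over all 126 ways to assign the group labels, which cannot go below p = 0.0159. The ratio of spry1 to spry2 was higher in CCDC6-RET tumors by 2.88, and that of spry1 to spry4 by 2.78. These pairs and the pair spred2a and spred2b each separated the groups fully (exact permutation p = 0.0159, adjusted over the 5 pairs 0.0198). That adjustment counts the fifth pair as a test, and without it the adjusted value would be somewhat larger. Such ratios were not taken for other pairs of genes, and 64.8% of all tested genes did not overlap between the groups in CPM. Separation of a pair is therefore not shown to be particular to these relatives. The fifth pair, spred1 to spred3, is a description, since spred3 was tested only through its CCDC6-RET counts. Its log2 ratio was lower in CCDC6-RET tumors by an amount that depends on the value added to the 0 counts of BRAF(V600E) tumor 6, at -4.84 with 0.5 added and -5.47 with 0.1 added. It was -4.21 without CCDC6-RET tumor 5 and -4.25 without BRAF(V600E) tumor 6.

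For the duplicates spred2a and spred2b the ratio shows the divergence most directly. There were 3.50, 6.42, 4.84 and 5.79 spred2a counts per spred2b count in CCDC6-RET tumors 2, 3, 5 and 6, against 2.35, 2.01, 2.48, 1.39 and 1.64 in BRAF(V600E) tumors 1, 2, 3, 6 and 7. No library of one group reached the range of the other, and the difference of the log2 ratios was 1.37. By contrast, spry2 and spry4 kept similar proportions, with ratios of 1.26 to 1.76 in CCDC6-RET tumors and 1.17 to 2.21 in BRAF(V600E) tumors, a log2 difference of -0.10 (exact permutation p = 0.635, adjusted 0.635).

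**Figure D3:**
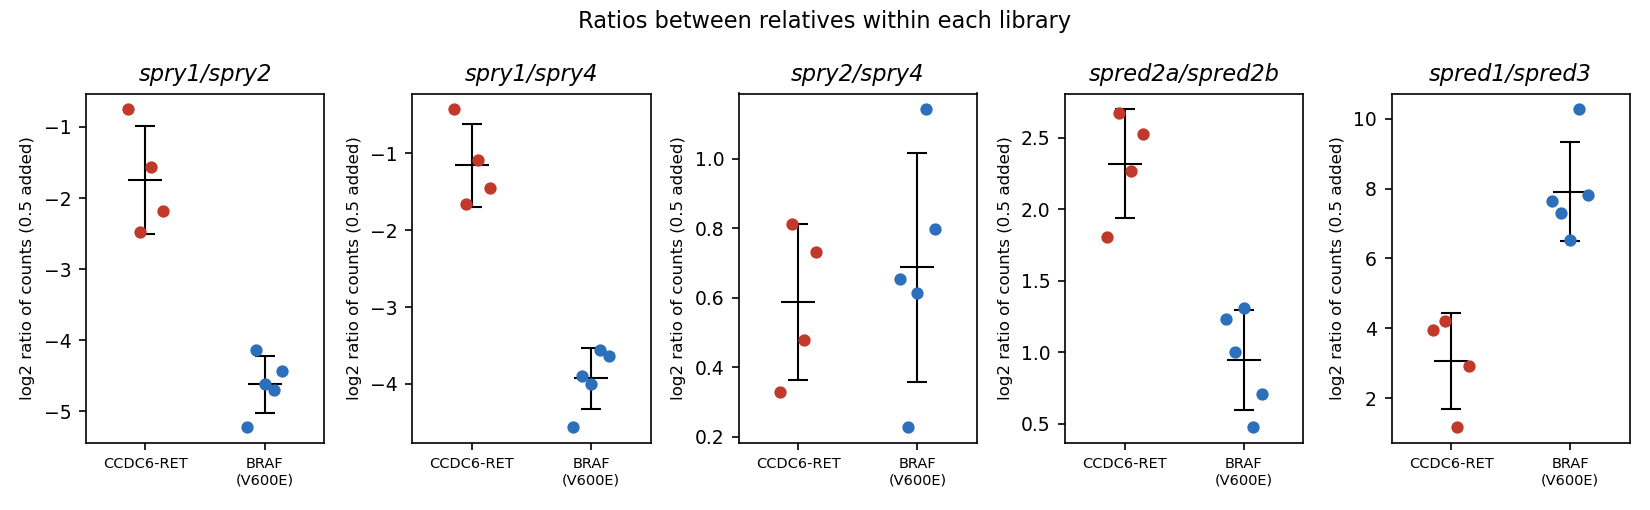
Log2 ratio of counts between pairs of related inhibitor genes, with 1 point per library and black bars for the group mean and SD. The groups separate for spry1/spry2, spry1/spry4, spred2a/spred2b and spred1/spred3 and overlap for spry2/spry4.

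The share that each gene took of the inhibitor counts also differed between the tumor types. For spry1, spry2, spry4, spred1 and spred3 the shares of the groups did not overlap. The spry2 margin was narrow, at 29.1% in CCDC6-RET tumor 3 against 29.9% in BRAF(V600E) tumor 2. As above, spred3 passed the filter through its CCDC6-RET counts alone. Of all counts on the 8 genes, spry1 took 6.41% ± 2.27 (SD) in CCDC6-RET tumors against 1.39% ± 0.276 in BRAF(V600E) tumors, and spred1 took 28.6% ± 6.96 against 16.1% ± 2.25. The shares of spry2 (21.1% ± 5.98 against 33.96% ± 3.53) and spry4 (13.8% ± 2.73 against 21.2% ± 3.20) were smaller in CCDC6-RET tumors. Shares are tied to one another, so the share of a gene falls when others rise. The CPM values of spry2 and spry4 overlapped between the groups and did not pass. Such shares were not taken for other sets of genes, and 64.8% of all tested genes did not overlap in CPM. Summed over its 3 genes the Sprouty level overlapped between the groups, at 131.9 ± 48.9 CPM against 148.7 ± 23.9 CPM. The 4 Spred genes together did not overlap, at 139.0 to 170.3 CPM in CCDC6-RET tumors against 81.3 to 94.6 CPM in BRAF(V600E) tumors, nor did they without spred3, at 134.5 to 154.3 CPM against 80.8 to 94.4 CPM. These shares and sums are descriptions, with no test.

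For most of these genes, as for most of all tested genes, CCDC6-RET tumors varied more among themselves than BRAF(V600E) tumors did. The SD of log2 CPM was larger in CCDC6-RET tumors for 7 of the 8 genes, spred2a being the exception, and for 6 of 7 without spred3, where 76.9% of all tested genes had the larger SD in that group. The highest CCDC6-RET tumor had 2.84 times the spry2 level of the lowest, 2.57 times the il17rd level and 7.70 times the spred3 level, while in BRAF(V600E) tumors the same ratio was 1.47 for both spry2 and il17rd. It was 2.35 against 1.59 for spry1 and 2.03 against 1.63 for spry4. For spred2b (1.73 against 1.69) and spred1 (1.26 against 1.28) it was nearly equal, and for spred2a it was smaller in CCDC6-RET tumors (1.17 against 1.39). The spred1 SDs were also close, at 0.145 against 0.142.

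A trio of the variable genes ranked the CCDC6-RET tumors alike. For spry2, spry4 and il17rd the order from high to low was tumor 3, 5, 6 and 2, an order that 743 tested genes (4.03%) shared. For spry4 tumors 6 and 2 were nearly tied, at 30.18 and 30.12 CPM, so the order of those tumors is not settled. The ERK phosphatase gene dusp6, which was looked at after its values were seen, had the same order, at 261.5, 378.1, 323.9 and 282.0 CPM in tumors 2, 3, 5 and 6. It did not pass the test between the groups (0.28 ± 0.17, edgeR adjusted p = 0.165, range 0.0493 to 0.646), passed without BRAF(V600E) tumor 6, and was at -0.32 with ribosomal scaling. The other genes followed other orders, with spry1 and spred3 highest in tumor 5, spred1 in tumor 6 and spred2b in tumor 2. Among marker lists, the share of thyroid transcripts ran 3.12%, 1.30%, 2.08% and 1.66% in tumors 2, 3, 5 and 6. Tumor 3, highest in spry2, spry4 and il17rd, was thus lowest in this share and tumor 2 the reverse. Most of the share was the single gene tg, at 30054, 12210, 18808 and 15981 CPM in those tumors. The order of the share is thus that of tg, and the order of the other thyroid markers was not examined. The thyroid list is 1 of 8 marker lists, and each of the others had its lowest CCDC6-RET share in tumor 5. The comparison with the thyroid share is a description over 4 tumors, and the part of tissue makeup in it was not tested.

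**Figure D4:**
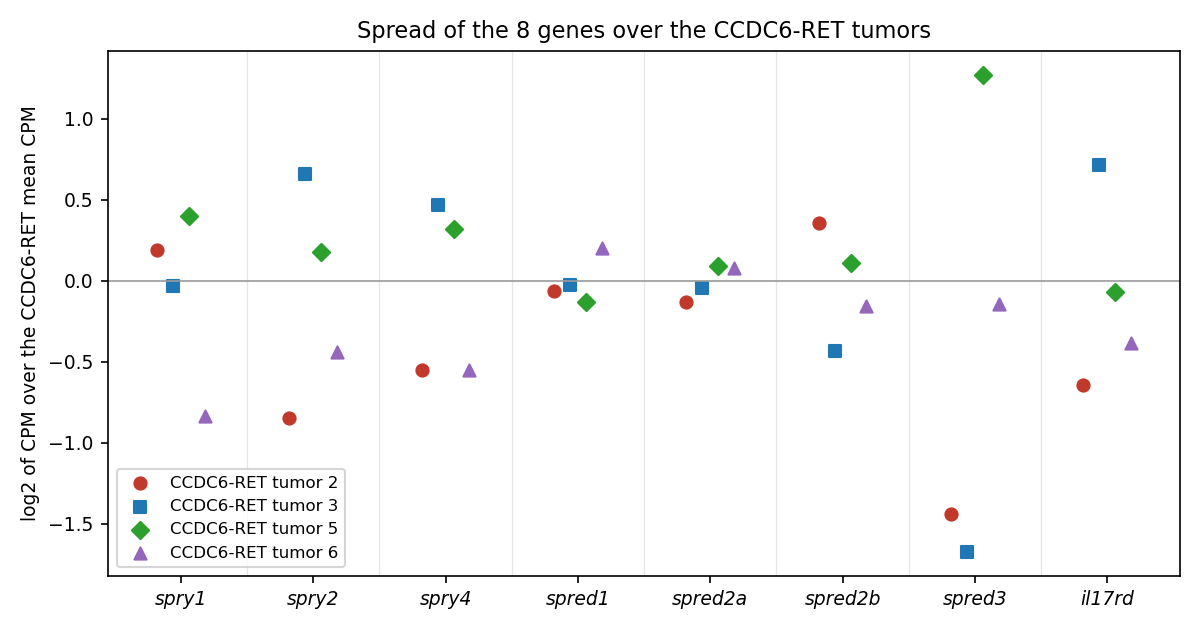
Log2 of the CPM of each inhibitor gene in each of the 4 CCDC6-RET tumors over the mean CPM of those tumors. Tumor 3 is highest and tumor 2 lowest for spry2, spry4 and il17rd, and spred3 has the widest spread, with tumor 5 on top.

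Over all 9 libraries the genes with profiles most like each inhibitor were found by the root mean square distance between centred log2 CPM profiles among 10712 genes. The nearest to spry1 was spdl1 (distance 0.132), to spred1 flot1b (0.0855), to spred2a zcchc10 (0.0656) and to spred2b rufy3 (0.155). The nearest to spry2 was mt-nd5 (0.211), to spry4 gdpd1 (0.174) and to il17rd cycsb (0.164), while the gene h3f3b.1 was among the nearest 3 for both spry2 (0.219) and spry4 (0.184). The gene siah2l, whose mammalian counterpart SIAH2 is a ubiquitin ligase that degrades Sprouty2, was the third nearest to spred2b (0.171). No gene lay close to spred3, for which slc13a4 came first at 0.693, followed by lta4h (0.739) and znf407 (0.778). The human counterparts of those 3 genes are, like SPRED3, on the study's own RET signature. That signature was chosen from these same samples for large differences, and a profile near that of spred3 requires one. Their place on it is therefore no separate evidence.

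The rest of the route on which these inhibitors act was read from 6 gene lists with 93 tested genes. Of these 36 (38.7%) were higher and 27 (29.0%) lower in CCDC6-RET tumors, with a median of 0.25, where 33.9% of all tested genes were higher and 38.2% lower. The counts of the single lists below are to be read against the same shares, and except for the PEA3 factors, a list of 3, between 57.1% and 73.9% of a list was called where 72.1% of all tested genes were. With ribosomal scaling 14 were higher and 40 lower.

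**Figure D5:**
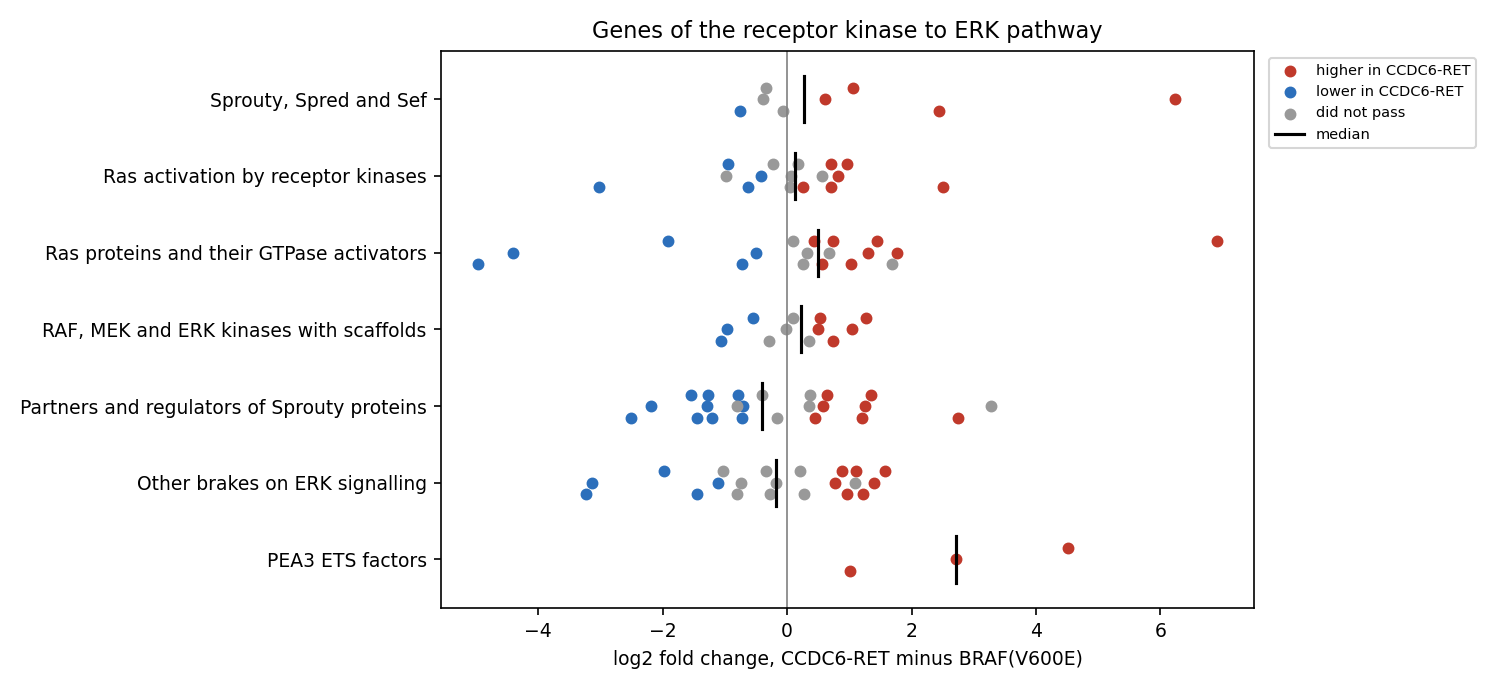
Log2 differences of the 8 inhibitor genes (top line) and of the tested genes of each pathway list, 1 point per gene, with the median as a black line and colors for genes called higher, called lower or not passing. With the usual scaling the 3 PEA3 genes are all higher, and every other list holds genes called in both directions.

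Among the adaptors and exchange factors between a receptor and Ras or its relative Rap1, 6 of 16 were higher, 4 were lower and 6 did not pass (median 0.12). The docking protein gene gab2 was at 18.03 ± 4.45 CPM (SD) in CCDC6-RET tumors against 3.17 ± 0.638 CPM, a difference of 2.50 ± 0.23 (edgeR adjusted p = 1.29e-05). The gene frs2b, a docking protein of FGF receptors, was higher at 0.96 ± 0.12. The adaptor shc2 was lower at -3.02 ± 0.46. Also lower, at -0.95 ± 0.26, was rapgef1a, the gene of an exchange factor chiefly of Rap1. The rapgef1a call was lost in the 6 libraries that share tumor numbers. The shc2 value is a description, at 0.185 ± 0.133 CPM against 1.57 ± 0.410 CPM, since shc2 passed the filter through its BRAF(V600E) counts alone.

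Of the Ras proteins and the GTPase activators that switch them off, 8 of 18 were higher, 5 were lower and 5 did not pass (median 0.49). The activator syngap1b was at 88.2 ± 12.7 CPM against 0.720 ± 0.246 CPM, a difference of 6.91 ± 0.25. Like spred3, it passed the filter through its CCDC6-RET counts alone, which favored its direction, so its value is a description. The Ras relative rras was higher at 1.44 ± 0.12, whereas the activator dab2ipa and kras itself were lower at -4.96 ± 0.37 and -1.91 ± 0.34. The dab2ipa value is likewise a description, as that gene, at 0.475 ± 0.225 CPM in CCDC6-RET tumors, passed through its BRAF(V600E) counts alone. The neurofibromin genes, the partners of Spred proteins, were singled out after their values were seen. They were higher, nf1a at 147.0 ± 46.3 CPM against 59.6 ± 3.11 CPM (1.30 ± 0.19) and nf1b at 41.4 ± 8.01 CPM against 20.3 ± 1.23 CPM (1.03 ± 0.15), with the nf1b call ending under ribosomal scaling (edgeR adjusted p = 0.0781).

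In the list of RAF, MEK and ERK kinases and their scaffolds, 5 of 12 genes were higher, 3 were lower and 4 did not pass (median 0.22). The kinase genes araf and map2k1 were higher at 1.27 ± 0.13 and 1.04 ± 0.30. The ERK gene mapk3 and the scaffold ksr1b were lower at -1.06 ± 0.21 and -0.97 ± 0.20. The map2k1 values overlapped between the groups, and it did not pass with ribosomal scaling (edgeR adjusted p = 0.212) or in the 6 libraries that share tumor numbers.

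Among partners and regulators of Sprouty proteins, 7 of 23 (30.4%) were higher, 10 (43.5%) were lower and 6 did not pass (median -0.41), shares near those of all tested genes. The phosphatase subunit ppp2cb, of the enzyme that activates Sprouty proteins, was higher at 1.20 ± 0.15. Its relative ppp2ca, of the same enzyme and named after its values were seen, was lower at -1.27 ± 0.33 (edgeR adjusted p = 0.00647). Also lower was nedd4l, related to the ligase that marks Sprouty2 for destruction, at -0.72 ± 0.12. The ubiquitin ligases cblb and cbl went opposite ways, with cblb at 86.0 ± 67.5 CPM against 12.8 ± 1.06 CPM (2.75 ± 0.45) and cbl, named after its values were seen, at 6.19 ± 3.58 CPM against 28.6 ± 2.25 CPM (-2.19 ± 0.37). Tumor 2 held the most cblb, and without it the difference was 2.08. The membrane scaffold gene cav1 was lower at -2.50 ± 0.25.

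Other brakes on ERK signaling gave 7 higher, 5 lower and 9 that did not pass among 21 (median -0.17). The RAF-trapping gene paqr3b and the receptor regulator lrig2 were higher at 1.39 ± 0.13 and 0.88 ± 0.11, the lrig2 call ending with ribosomal scaling (edgeR adjusted p = 0.0995). The adaptor sh2b3 and the RAF inhibitor pebp1 were lower at -3.23 ± 0.30 and -3.14 ± 0.55, with pebp1 at -4.16 without CCDC6-RET tumor 5. Neither gene would have passed the filter on its CCDC6-RET counts alone, so both values are descriptions. All 3 tested PEA3 factors, ETS transcription factors that respond to ERK, were higher (median 2.71), with etv4 at 4.51 ± 0.24 and etv5b at 2.71 ± 0.17.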

How the data were processed

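RNA sequencing of 9 libraries from zebrafish thyroid tumors was read from a single deposited table. The deposited values used are raw counts, whole numbers for each gene in each library. The authors aligned the reads with STAR on GRCz10, and the submitters' processing notes give version 2.3 while the methods of the study name a newer one. The counting tool and its strand setting are not given in the sources used here. The deposited table also holds size-factor normalized values (signal), and the authors' DESeq2 log2 fold changes, Wald statistics (a score) and p-values, none of which were used. Positions are GRCz10, from the table.

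Counts were analysed with edgeR 4.0.16 (R 4.3.3): filterByExpr (minimum count 10), TMM, robust glmQLFit and glmQLFTest, no covariate. DESeq2 1.42.0 and limma 3.58.1 (voom) were alternatives, with other scalings and filters and each library left out. Steps were tested on simulated data. Standard errors are the log2 difference divided by the root of F. Log2 ratios had 0.5 added to counts. Marker and pathway entries were matched by symbol (97 of 103 pathway entries). The study's methods name DESeq2 with no covariate.

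The genes named are the 8 inhibitors, per pathway list the 2 higher and 2 lower calls with the smallest p, and for each inhibitor the 3 genes nearest in profile with at least 10 CPM in a group. A nearest gene was not named where its symbol was a clone name. Those named outside this rule are said to be. The inhibitors and lists were chosen with earlier results of these data known. Intervals of counts cover counting error only.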

Additional observations from a re-analysis of the deposited data

How the results depend on the processing

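Under the other scalings, filters and tools, spry1 and spred1 kept their direction and their call. The direction of spred3 was the same wherever it was tested, and at a minimum count of 50 it was not. With ribosomal scaling spry2 (-1.03), spry4 (-0.93) and il17rd (-0.70) passed as lower, spred2a (0.039) no longer passed, 4 inhibitors were called lower in place of 1, 14 pathway genes were higher in place of 36, and 3075 genes were higher in the whole table in place of 6255. These follow the shift of -0.56 in the median of all genes. With library totals alone that shift was -0.18 and with DESeq2 size factors -0.10.

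Leaving out each library in turn gave -0.70 to -0.17 for spry2, -0.41 to 0.12 for il17rd, 5.31 to 6.76 for spred3 and -0.88 to -0.63 for spred2b. Without CCDC6-RET tumor 3, 2 inhibitors were called lower, so that the count ran from 1 to 2. The ratio of spry2 to spry4 ran from -0.21 to 0.014 and changed sign without BRAF(V600E) tumor 6. Among the other brakes on ERK signaling the lower calls ran from 5 to 8.

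Tumor numbers 2, 3 and 6 occur in both groups. Correlations of same-numbered deviations were 0.0334, 0.00765 and -0.0410, and not every tumor correlated best with its own number, so the numbers were not taken as pairs. With the replicate block spred2b was at -0.75 (edgeR adjusted p = 0.0734) and no inhibitor was called lower (0), and the same 6 libraries without the block gave -0.75 (0.0711) and 0. The block moved the calls in the whole table to 10260 from 11522 in those 6 libraries. Depth limits spred3 in BRAF(V600E) tumors, where 11 counts carry the comparison.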

Other observations

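The table assigns further rows to human counterparts of these families, named here after their values were seen. The gene CR735102.1, assigned to SPRY3, was at 17.7 ± 5.85 CPM (SD) in CCDC6-RET tumors against 18.7 ± 2.27 CPM, a difference of -0.08 ± 0.22 (edgeR adjusted p = 0.772). A second row assigned to IL17RD, ENSDARG00000089004, had 8.83, 2.57, 10.97 and 5.998 CPM in CCDC6-RET tumors 2, 3, 5 and 6. BRAF(V600E) tumors 1, 2, 3, 6 and 7 had 16.1, 31.1, 26.4, 22.9 and 12.3 CPM. The groups did not overlap, with BRAF(V600E) tumor 7 just above CCDC6-RET tumor 5, and the difference was -1.60 ± 0.42 (edgeR adjusted p = 0.00622, range over the alternatives 7.9e-05 to 0.0172). It passed under each alternative run, so the row differed where il17rd did not pass, and the difference between the rows was not tested.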
